A study of Mus musculus with 4 samples.

Results

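The genes described here are 10 genes of the growth hormone and insulin-like growth factor (IGF) axis, namely Ghr, Igf1, Igf1r, Igf2r, Igfbp2, Igfbp3, Igfbp4, Igfbp5, Igfbp6 and Socs2. They were chosen by name with earlier results of these data known, so comparisons of them with all genes describe and do not test. All 10 were found among the 54532 genes counted. RNA-sequencing was performed on mouse podocytes of the conditionally immortalized line MPC5, as 2 control libraries (saline) and 2 libraries of cells given IL-12 at 400 ng/ml over 6 h. The cells of both groups had grown with interferon-γ, which was withdrawn for differentiation. Whether replicates were grown as separate cultures is not given in the sources used here, so p-values measure only the spread between these samples, which may be technical.

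Growth hormone acts through its receptor, the kinase JAK2 and the transcription factor STAT5, and IGF-1 is the growth factor classically produced in response. IGF-1 signals through the tyrosine kinase receptor IGF1R to PI3K and AKT, while IGF2R binds IGF-2 and carries it to the lysosome. The secreted binding proteins (IGFBPs) hold IGFs in the extracellular space and limit or prolong their access to the receptor, and SOCS2 is an induced inhibitor of growth hormone receptor signaling. Podocytes carry receptors for growth hormone and for IGF-1, and the axis is known for its part in kidney growth and in diabetic kidney disease.

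The total counts were between 18355379 and 20098012 per library, at which 3 counts correspond to 0.152 to 0.166 CPM (the count scaled to the library total and the TMM factor), and this floor, like the counting intervals below, reflects counting error alone. Both libraries of a condition differed from each other by more than counting noise (chi-square over its degrees of freedom 2.2 for control and 2.52 for IL-12), so neither pair was treated as 1 library deposited again, which does not show that they were separate cultures. The podocyte label was borne out in part. Synpo and Cd2ap, which encode synaptopodin and a slit diaphragm adaptor, had mean FPKM values (the deposited measure of level per length) of 41.1 and 17.4 over the 4 libraries, whereas Nphs1, Wt1, Ptpro and Tcf21 had at most 16 counts in any library. Of 20 markers of endothelial, mesangial or fibroblast, tubule and immune cells, 4 passed the filter on low counts. Lrp2, a tubule marker, had a mean of 35.4 FPKM, above Cd2ap, and Pdgfrb, Cd68 and Csf1r had 10.6, 4.35 and 3.51 FPKM. Pecam1, Dcn, Umod and Ptprc had at most 12 counts in any library. Within the tubule, the mesangial and fibroblast, and the immune lists the markers thus disagreed. Csf1r fell after IL-12, with a log2 fold change of -0.88, and Lrp2 with -0.27. Synpo fell too, with -0.66, while Podxl rose, and 5 of the 10 podocyte markers were tested. The summed FPKM of the podocyte markers was 83.1 and 80.2 in control and 65.6 and 67.6 after IL-12. That of the tubule markers was 39.4 and 37.9 against 31.0 and 33.4, of the mesangial and fibroblast markers 9.55 and 9.96 against 10.7 and 12.2, and of the immune markers 8.13 and 9.44 against 6.03 and 7.90. The endothelial sum was at most 0.106. Whether these differences in marker levels bear on the genes below was not tested, and in RNA from whole cultures fewer expressing cells and less RNA per cell cannot be told apart.

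Ghr had the smallest p of the genes described and rose 2.67-fold after IL-12, and Socs2 rose 1.78-fold. Igfbp3 rose 1.79-fold and Igf1 2.77-fold, both from low counts. Igfbp2 and Igf2r, which were abundant, fell slightly (to 0.892 and 0.895 of the control level), and Igf1r was not detectably changed. Of the 10 genes, 8 passed the filter on low counts. Of these, 4 passed the test as higher (adjusted p below 0.05 by edgeR's quasi-likelihood test, adjusted over the 14095 genes tested), against 16.1% of all genes tested. A further 2 passed it as lower, against 14.4% of all genes. The shares of all genes are not matched for level, and small changes pass more readily at high counts. Igf1 and Ghr were past 2-fold, which was the case for 1.61% of all genes. Igf1 (6 and 10 counts in control, 28 and 17 after IL-12) passed the filter only with its IL-12 libraries. Its entry into these shares thus depended on the group where it was high, and it lends them no support. Igfbp5 passed the filter only with its control libraries. With no filter, 3 of the genes were higher and 1 was past 2-fold. The median log2 fold change was 0.44 over the 8 genes and -0.0022 over all genes tested. For each of the 8 the groups did not overlap, but neither did they for 62.9% of all genes. Without control replicate 1, and likewise without IL-12 replicate 1, 2 of the genes were higher, 1 was lower and 1 was past 2-fold. With scaling by total counts only, 40.5% of all genes that passed were higher, against 52.8% with TMM factors. With 2 against 2, the smallest two-sided p of an exact permutation test is 0.333, and the adjusted p-values depend on how edgeR pools the spread over genes.

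**Figure D1:**
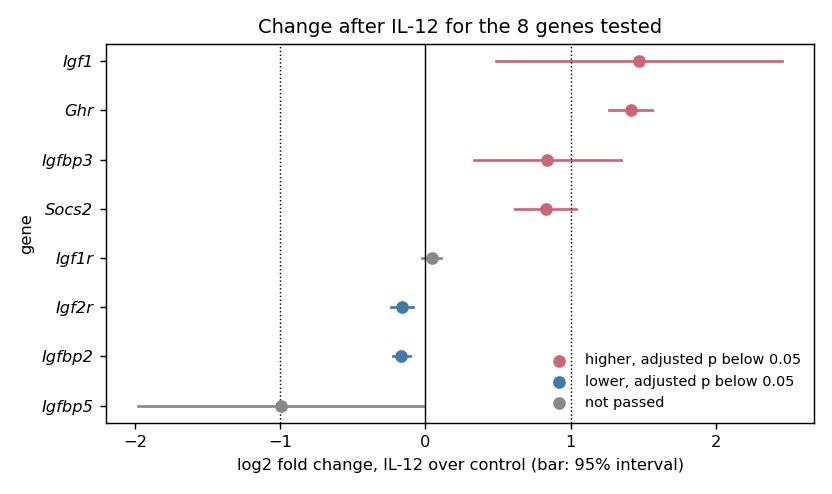
Log2 fold change (IL-12 over control, x axis) with its 95% interval (bars) for the 8 genes tested (y axis), with dotted lines at 2-fold. Ghr, Igf1, Igfbp3 and Socs2 lie to the right of 0, Igf2r and Igfbp2 lie close to 0 on the left, and the intervals of Igf1 (0.49 to 2.46) and Igfbp5 (-1.98 to -0.01) are the widest.

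Ghr (ENSMUSG00000055737), the receptor of growth hormone, lies on the minus strand of chromosome 15 from 3317760 to 3583492 (GRCm38). RefSeq gives it 2 start sites, at positions 3583352 and 3581842. Since Ghr had the clearest change of the group, the upstream stretches of both are shown, as far as they lie outside annotated exons, with the minus strand read 5′ to 3′ from RefSeq (GRCm38.p6). Capitals mark the GC box GGGCGG on either strand and the AP-1 motif TGANTCA, the only motifs of 5 searched that these stretches hold. The first covers chr15:3583493-3583602 and ends 140 bases before its start site, and the second covers chr15:3581843-3582092 and ends at its start site.
Ghr, start at 3583352: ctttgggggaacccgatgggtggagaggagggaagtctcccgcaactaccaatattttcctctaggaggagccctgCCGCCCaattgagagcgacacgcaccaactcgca
Ghr, start at 3581842: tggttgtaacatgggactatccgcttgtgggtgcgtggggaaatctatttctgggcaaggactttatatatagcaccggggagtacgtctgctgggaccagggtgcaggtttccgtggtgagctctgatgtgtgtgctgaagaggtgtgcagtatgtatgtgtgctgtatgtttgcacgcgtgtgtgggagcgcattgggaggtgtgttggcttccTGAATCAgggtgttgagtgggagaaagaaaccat

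Ghr had 463 and 547 counts in control against 1404 and 1293 counts after IL-12, or 24.4 and 29.0 CPM against 71.0 and 71.5 CPM. Both IL-12 libraries were more than 2-fold above both control libraries, and the IL-12 libraries were closer to each other than the control libraries were. Means were 26.7 ± 3.21 CPM for control and 71.2 ± 0.353 CPM for IL-12 (SD, n = 2 each). The log2 fold change was 1.41 (SE 0.07, 95% interval 1.27 to 1.56), with an adjusted p of 3.24e-11 by edgeR. Ghr was at rank 35 by p among the 14095 genes tested. Leaving out single libraries gave log2 fold changes from 1.30 (without control replicate 1) to 1.54 (without control replicate 2). No other gene overlaps it in the deposited annotation.

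Among the genes whose pattern over the 4 libraries lay nearest to that of Ghr were F2rl1 and Il1rl1, with distances of 0.0826 and 0.106. The measure was the distance between the log2 CPM deviations from each gene's own mean, among 159 genes past 2-fold with at least 1 CPM. F2rl1, which encodes the protease-activated receptor PAR2, had 28.4 and 34.7 CPM in control and 79.1 and 80.1 CPM after IL-12. Il1rl1, the receptor of IL-33, had 39.0 and 42.0 CPM against 109 and 105 CPM.

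Socs2 (ENSMUSG00000020027, chromosome 10 from 95385362 to 95417180, minus strand) encodes the inhibitor that binds the activated growth hormone receptor. It had 234 and 227 counts in control against 442 and 379 after IL-12. The libraries of each group lay close together at 12.4 and 12.0 CPM and at 22.3 and 20.9 CPM, with no overlap. The log2 fold change was 0.83 (SE 0.10, 95% interval 0.62 to 1.04), with an adjusted p of 3.4e-06 by edgeR. Socs2 thus passed the test but its change was below 2-fold. The interval of Socs2 does not reach that of Ghr, although a test of the difference between the 2 changes was not made. Per length, Ghr stood at 2.08 and 2.54 times the FPKM of Socs2 in control and at 3.34 and 3.59 times after IL-12.

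Igf1 (ENSMUSG00000020053, chromosome 10 from 87858265 to 87937042, plus strand), the growth factor of the axis, was barely expressed. It had 6 and 10 counts in control against 28 and 17 counts after IL-12, and reached the filter's minimum of 10 counts in 3 of the 4. Igf1 was thus tested only because of its IL-12 libraries, the group where it was high. The groups did not overlap. By counting error alone, the ratio of 45 to 16 summed counts, scaled by library size, was 2.81 with an exact 95% interval of 1.56 to 5.32. By edgeR the log2 fold change was 1.47 (SE 0.47), with an adjusted p of 0.0228. This call was lost without control replicate 1 (log2 fold change 1.15, adjusted p = 0.184 by edgeR) and without IL-12 replicate 1 (1.14, adjusted p = 0.238 by edgeR), and with no filter on low counts (1.47, adjusted p = 0.102 by edgeR). It was also lost on the deposited FPKM values, where limma gave 0.61 for log2(FPKM + 0.1) (adjusted p = 0.172) and 0.10 for log2(FPKM + 1) (adjusted p = 0.313), scales that understate the change of a gene this low. The antisense gene Igf1os, which overlaps Igf1, had 0 counts in every library. The other ligand, Igf2, had 0 counts in all 4 libraries.

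Igf1r (ENSMUSG00000005533, chromosome 7 from 67952827 to 68233668, plus strand), the signaling receptor of IGF-1, was well expressed and nearly constant. It had 7248 and 7196 counts in control against 7667 and 7227 after IL-12, or 383 and 381 CPM against 388 and 399 CPM. The IL-12 libraries lay just above the control libraries. The fold change was 1.03 with a 95% interval of 0.985 to 1.08, and the adjusted p was 0.337 by edgeR, so a change beyond that interval was not seen at this depth. The ratio of Ghr to Igf1r per length was 0.118 and 0.141 in control and 0.34 and 0.332 after IL-12.

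Igf2r (ENSMUSG00000023830, chromosome 17 from 12682406 to 12769664, minus strand) encodes the clearance receptor of IGF-2, and in the mouse it is an imprinted gene read from the maternal copy. It had 5415 and 5128 counts in control against 4901 and 4550 after IL-12. On the CPM scale these were 286 and 272 against 248 and 252, so the groups did not overlap. Igf2r fell by 0.16 on the log2 scale (SE 0.04, 95% interval -0.23 to -0.08), a ratio of 0.895, with an adjusted p of 0.00207 by edgeR. Without control replicate 1 the difference was -0.12 (adjusted p = 0.064 by edgeR) and without IL-12 replicate 1 it was -0.15 (adjusted p = 0.0523 by edgeR), so the call rests on these libraries. Airn, the antisense transcript that overlaps Igf2r, had 1 count in the 4 libraries together and shares no exon bases with it. The ratio of Igf1r to Igf2r per length was 0.742 and 0.778 in control and 0.867 and 0.88 after IL-12.

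The 5 binding protein genes among the 10, which leave out the related Igfbp7, differed widely in level. Of these, 1 made up almost all of their transcripts. Igfbp2 (ENSMUSG00000039323) held 99.9% of the summed FPKM of the 5 binding protein genes in both control libraries and 99.8% in both IL-12 libraries. It lies on chromosome 1 from 72824503 to 72852474 on the plus strand, 5457 bases from Igfbp5, which lies on the minus strand. Igfbp3 took 0.0854% and 0.0858% of the sum in control and 0.182% and 0.161% after IL-12. Igfbp3 is the main carrier of IGFs in the blood, and Igfbp2 is a binding protein abundant in early life. The upstream stretches of both are shown because they are the binding protein genes that passed the test, in opposite directions. Igfbp2 is read on the plus strand (chr1:72824230-72824479) and Igfbp3 on the minus strand (chr11:7213924-7214173), both 5′ to 3′ up to the RefSeq start site, with the same motifs in capitals.
Igfbp2, start at 72824480: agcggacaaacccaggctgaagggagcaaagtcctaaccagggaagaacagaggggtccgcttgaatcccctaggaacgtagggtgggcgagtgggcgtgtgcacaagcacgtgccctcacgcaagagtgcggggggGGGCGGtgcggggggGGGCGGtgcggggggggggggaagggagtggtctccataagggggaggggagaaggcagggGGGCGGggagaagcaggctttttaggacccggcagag
Igfbp3, start at 7213923: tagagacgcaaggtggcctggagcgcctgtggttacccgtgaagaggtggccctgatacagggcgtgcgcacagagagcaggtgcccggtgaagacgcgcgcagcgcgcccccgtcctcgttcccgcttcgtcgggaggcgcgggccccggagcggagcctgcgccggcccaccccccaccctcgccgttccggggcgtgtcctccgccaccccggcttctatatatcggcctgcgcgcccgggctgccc
The Igfbp2 stretch holds 3 GC boxes and that of Igfbp3 holds none of the motifs. Over the RefSeq promoters of all genes (250 bases before to 50 after each start), 35.7% of 32851 hold a GC box and 7.81% hold the AP-1 motif. Of the 11 promoters listed for 9 of the 10 genes, 4 hold the GC box and 3 hold the AP-1 motif (Ghr, Igf1 and the second start of Igfbp2). The STAT motif TTCNNNGAA and the forkhead motif TGTTTAC were in 0 of the 11 and in 8.3% and 3.65% of all promoters, and the TEAD motif GGAATG was in 1 of the 11 (Igfbp5) and in 14.7% of all. Both strands were searched, the motifs do not overlap, and a match in these letters is not a measured site.

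Igfbp2 had 24848 and 26113 counts in control against 24001 and 21532 after IL-12, and it was at rank 44 by CPM among all genes tested. Scaled to the library, these were 1312 and 1384 CPM against 1213 and 1190.2 CPM, with both IL-12 libraries below both control libraries. Igfbp2 fell by 0.17 on the log2 scale (SE 0.03, 95% interval -0.22 to -0.11), a ratio of 0.892, with an adjusted p of 0.000148 by edgeR. With log2(FPKM + 1) in place of counts the difference was the same size (-0.16), with an adjusted p of 0.0569 by limma.

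Igfbp3 (ENSMUSG00000020427, chromosome 11 from 7206086 to 7213923, minus strand) had 36 and 38 counts in control against 74 and 59 after IL-12. The levels were 1.9 and 2.01 CPM against 3.74 and 3.26 CPM, and the groups did not overlap. The log2 fold change was 0.84 (SE 0.24, 95% interval 0.33 to 1.34), with an adjusted p of 0.012 by edgeR. The call was lost without control replicate 1 (0.80, adjusted p = 0.0511 by edgeR), without IL-12 replicate 1 (0.74, adjusted p = 0.121 by edgeR) and with the DESeq2 Wald test (adjusted p = 0.0999).

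Igfbp5 (ENSMUSG00000026185, chromosome 1 from 72857932 to 72874884), which encodes a binding protein that attaches to the extracellular matrix, pointed the other way. It had 23 and 15 counts in control against 12 and 7 after IL-12. The groups did not overlap, and the log2 fold change was -0.99 (SE 0.47), with an unadjusted p of 0.0473 and an adjusted p of 0.122 by edgeR, so it did not pass. Its exact counting interval for the ratio of 19 to 38 summed counts was 0.272 to 0.888. The FPKM of Igfbp3 was 3 and 4.86 times that of Igfbp5 in control and 11.8 and 16.2 times after IL-12.

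Igfbp4 and Igfbp6 were near the floor and were not tested. Igfbp4 (ENSMUSG00000017493, chromosome 11 from 99041244 to 99054392) had 5 and 6 counts in control against 3 and 3 after IL-12, a ratio of 0.545 with an exact 95% interval of 0.165 to 1.61. Igfbp6 (ENSMUSG00000023046, chromosome 15 from 102144362 to 102149511), a binding protein that prefers IGF-2, had 2 and 1 counts against 3 and 5, a ratio of 2.66 with an exact 95% interval of 0.639 to 15.6. Neither difference was detectable at this depth.

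**Figure D2:**
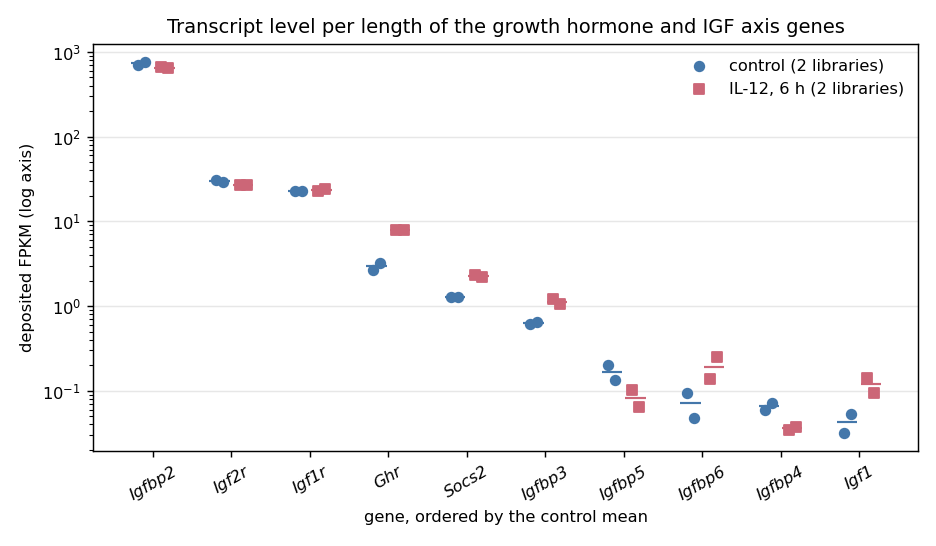
Deposited FPKM (log y axis) of the 10 genes (x axis, ordered by the control mean) in each of the 2 control libraries (circles) and 2 IL-12 libraries (squares), with lines at the group means. Igfbp2 stands highest in all 4 libraries, and Ghr moves from a mean of 2.95 to 7.87 FPKM.

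Levels compared per length followed a steep order. In the control group Igfbp2 (729.6 ± 28.4 FPKM, SD, n = 2) was followed by Igf2r (29.9 ± 1.04), Igf1r (22.7 ± 0.0273), Ghr (2.95 ± 0.358), Socs2 (1.28 ± 0.0225), Igfbp3 (0.625 ± 0.0263) and Igfbp5 (0.167 ± 0.0492). Igfbp6, Igfbp4 and Igf1 came last, and Igfbp6 overlapped both of the others between libraries. In the IL-12 treatment group the first 6 places were the same, with 651 ± 8.78 FPKM (SD, n = 2) for Igfbp2, 7.87 ± 0.0397 for Ghr, 2.27 ± 0.103 for Socs2 and 1.12 ± 0.108 for Igfbp3. Below them Igfbp6, Igf1 and Igfbp5 came in that order, each overlapping its neighbour between libraries, and Igfbp4 came last. Among the genes tested, mean FPKM placed Igfbp2 at percentile 99.9, Igf2r at 85.8, Igf1r at 81.8, Ghr at 45.8, Socs2 at 24.9, Igfbp3 at 15.6, Igfbp5 at 1.3 and Igf1 at 0.468.

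The other genes of the pathway were then examined, as 5 lists chosen by known role, with earlier results of these data known. Their shares are therefore descriptions and not tests. Counts of genes that passed are to be read against the 30.5% of all genes that passed in either direction. That share is not matched for level, and small changes pass more readily at high counts (Akt1 passed with a log2 fold change of 0.11). Of 20 genes that carry or inhibit growth hormone and IGF signals, 16 were tested, and 2 were higher and 5 lower (43.8%), with a median log2 fold change of -0.06. Irs1, the docking protein that couples IGF1R to PI3K, rose from 58.4 and 56.9 CPM to 91.6 and 90.9 CPM (log2 fold change 0.66, SE 0.05, adjusted p = 8.24e-09 by edgeR). Gab1, a docking protein of growth factor receptors, fell from 58.2 and 54.1 CPM to 38.3 and 37.9 CPM (log2 fold change -0.56, SE 0.06, adjusted p = 1.26e-06 by edgeR). Socs3, a cytokine-induced inhibitor, rose with a log2 fold change of 0.40 and Sh2b1, an adaptor of JAK2, fell with -0.22. Stat5b, Insr and Sos1 were lower, with log2 fold changes of -0.17, -0.19 and -0.17. Jak2 (-0.04, adjusted p = 0.529), Irs2 (0.0004, adjusted p = 0.998) and Shc1, the gene of highest level in the list at 62.8 FPKM (0.05, adjusted p = 0.272), did not pass by edgeR. Prlr, which encodes the prolactin receptor, had 0 counts in all 4 libraries. Without control replicate 1, and likewise without IL-12 replicate 1, 4 genes of this list passed. Gab1 shares 266 exon bases with the antisense gene Gm31105, which had 35 counts in all. Irs1 shares 2822 with Gm9747 on the opposite strand, which had 0 counts in every library.

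Of 11 genes that bind IGFs or promote or inhibit their release from binding proteins, 7 were tested, and 2 were higher and 2 lower (57.1%), with a median log2 fold change of -0.13. Adam12, a protease reported to cleave Igfbp3 and Igfbp5 proteins, had 143 and 142 counts in control against 804 and 679 after IL-12. This was 7.55 and 7.52 CPM against 40.6 and 37.5 CPM, a 5.19-fold rise (log2 fold change 2.37, SE 0.10, adjusted p = 2.04e-12 by edgeR). Igfbp7, a related protein that binds IGFs weakly, was the list's gene of highest level, with a mean of 228 FPKM over the 4 libraries. It rose from 230 and 249.4 CPM to 317 and 304 CPM (log2 fold change 0.37, SE 0.04, adjusted p = 7.49e-07 by edgeR). Htra1, a secreted protease, and Adam17, the protease that sheds the growth hormone receptor, were lower, with log2 fold changes of -0.28 and -0.14 (adjusted p = 0.00383 and 0.037 by edgeR). Adam17 shares 311 exon bases with Iah1 on the opposite strand, and Igfbp7 shares 85 with Polr2b. Whether reads were counted by strand is not given, so these values are uncertain to that extent. Without IL-12 replicate 1, 2 genes of this list passed. Stc2, an inhibitor of the IGFBP protease pappalysin, did not pass (log2 fold change -0.03, adjusted p = 0.52 by edgeR), and Pappa had 11 to 19 counts per library.

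All 26 genes of the PI3K and AKT chain were tested, and 3 were higher and 11 lower (53.8%), with a median log2 fold change of -0.12. The changes were small. Foxo3, a transcription factor that AKT restrains, fell with a log2 fold change of -0.29 (SE 0.04, adjusted p = 1.12e-05 by edgeR), and Pik3r3, a regulatory subunit of PI3K, with -0.35 (SE 0.05). Rheb, the activator of mTOR, was higher (0.25, SE 0.04), and so was Akt1, the gene of highest level in the list (0.11, SE 0.03, adjusted p = 0.0109 by edgeR). None of the 26 was past 2-fold. Pik3r3 shares 1289 exon bases with Gm49337 on the same strand, which had 0 counts in every library. Without IL-12 replicate 1, 7 genes of this list passed.

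Of 16 known target genes of FOXO factors, 14 were tested, of which 11 were lower and 1 was higher (85.7%), with a median log2 fold change of -0.48. Ccng2, a cyclin of quiescent cells, fell from 134 and 130 CPM to 88.0 and 87.9 CPM (log2 fold change -0.58, SE 0.05, adjusted p = 1.3e-08 by edgeR). Cdkn1b, which encodes the cell cycle inhibitor p27, fell with -0.50 (SE 0.05), Bcl6, a transcriptional repressor, with -0.69 (SE 0.08) and Sesn3, a stress-response gene, with -0.44 (SE 0.05). Cited2 was the gene of highest level and the 1 that rose (0.22, SE 0.04). Depp1, picked out after its value was seen, had the largest fall of the list, from 39 and 31 counts to 6 and 12 counts (log2 fold change -1.94, SE 0.42). It passed the filter on low counts only with its control libraries. Gadd45a and Sod2 did not pass, with log2 fold changes of -0.05 and 0.16. Each library left out in turn gave 10 to 12 genes of this list that passed.

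Of 9 known STAT5 targets, 7 were tested, and 3 were higher and 1 was lower (57.1%), with a median log2 fold change of 0.38. The list does not separate targets that STAT5 induces from those it represses, so these directions do not give a direction of STAT5 activity. Ccnd1, which encodes cyclin D1 and was the gene of highest level, rose from 378 and 371 CPM to 556 and 543 CPM (log2 fold change 0.55, SE 0.03, adjusted p = 1.09e-10 by edgeR). Ccnd1 shares 1100 exon bases with Oraov1 on the opposite strand, which had 1807 counts in all. Pim1, a kinase gene, rose with 0.38 (SE 0.09), and Socs3 and Bcl6 are in this list as well as in another. Pim1 shares 488 exon bases with Gm26885 on the opposite strand, which had 0 counts in every library. Cish, which like Socs2 encodes a SOCS family inhibitor, had 14.7 and 12.3 CPM in control against 11.0 and 11.2 CPM after IL-12, and did not pass (log2 fold change -0.28, adjusted p = 0.0882 by edgeR). Cish thus lay lower and Socs2 higher after IL-12 in every library, though Cish did not pass.

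**Figure D3:**
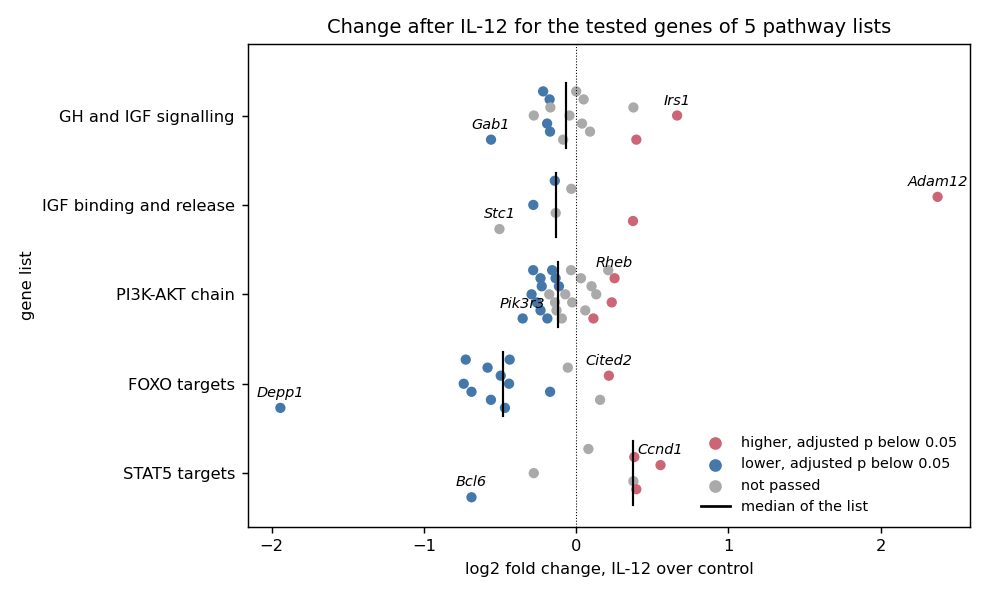
Log2 fold change (IL-12 over control, x axis) of each tested gene in 5 pathway lists (y axis), colored by the test, with a bar at the median of the list and the outermost genes named. The FOXO targets have their median at -0.48, the other lists have medians from -0.13 to 0.38, and Adam12 stands apart at 2.37.

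**Figure D4:**
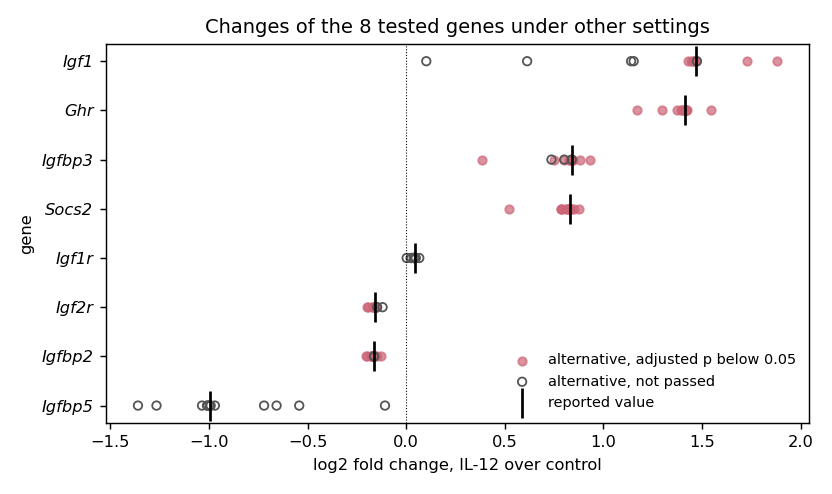
Log2 fold change (x axis) of the 8 tested genes (y axis) under alternative scalings, filters, tests and left-out libraries (circles, filled where the adjusted p was below 0.05), with a bar at the reported value. Ghr and Socs2 passed under each alternative. The call was lost under 5 of the 13 alternatives that gave Igf1 an adjusted p. It was lost under 3 of 15 for Igfbp3 and under 2 of 15 each for Igf2r and Igfbp2.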

How the data were processed

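Podocyte RNA was sequenced as 2 control and 2 IL-12 libraries, and groups were taken from the sample titles. The deposited values are raw counts and FPKM values, and each FPKM equals the count per kilobase and library total times 1 constant per library (0.985, 0.989, 1.02 and 1.02). The submitters' processing notes name HISAT2, StringTie and the build mm9, but the gene coordinates equal GENCODE M21 (GRCm38) for 98.3% of 54409 shared genes and for all 10 genes described, so they are given as GRCm38. Versions, strand use and the treatment of multi-mapping reads are not given in the sources used here.

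Counts were analysed with edgeR 4.0.16 in R 4.3.3: filterByExpr defaults (minimum 10 counts), TMM scaling, and the quasi-likelihood test across all 14095 genes kept, with Benjamini-Hochberg adjustment and no replicate block. SE is the log2 fold change over the square root of F. FPKM served for levels between genes. Alternatives used DESeq2 1.42.0 and limma 3.58.1, with log2(FPKM + 1) and log2(FPKM + 0.1), and figures matplotlib 3.10.9. The code was tested on simulated data.

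The members and lists were chosen with earlier results of these data known. Named genes were the 10 members, the 4 smallest p-values among those that passed and the highest FPKM of each pathway list, and the 3 genes nearest to Ghr. Some genes that this rule or a marker list picks are not reported here. Others are given as examples chosen after their values were seen. Promoters were matched by symbol (9 of 10), Socs2 being the exception. Planned protein features were not computed, since no protein table was used here.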

Additional observations from a re-analysis of the deposited data

How the results depend on the processing

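Of the 10 genes, Ghr and Socs2 passed the test under all 15 alternatives run for each, with log2 fold changes from 1.17 to 1.54 and from 0.52 to 0.87, and Igf1r passed under none of 15. No log2 fold change of the 8 tested genes changed sign. Where results moved, the cause was not tested unless the setting itself gives it (fewer genes, libraries or a stricter limit). In the counts below for the 10 genes and the lists, shifts of up to 1.5-fold are not listed, except with 1 library left out. For example, 3 of the 10 genes were higher with no filter, with at least 10 counts in every library and on either FPKM scale. The number of genes higher (4) was 2 with DESeq2, which gave Igf1 no adjusted p, and 2 at an adjusted p below 0.01, and from 2 to 4 with 1 library left out. The number lower (2) was 1 with log2(FPKM + 1) or log2(FPKM + 0.1), and from 1 to 2 with 1 library left out. The number past 2-fold (2) was 1 with no filter, with at least 10 counts in every library, with DESeq2, with either FPKM scale, at an adjusted p below 0.01 and in a test against 2-fold, from 1 to 2 with 1 library left out, and 4 with a 1.5-fold limit. Growth hormone and IGF signaling genes that passed (7) were 3 with DESeq2, 4 at the stricter p and from 4 to 8 with 1 library left out. Those of IGF binding and release (4) were from 2 to 3 with 1 library left out. Those of the PI3K and AKT chain (14) were 6 with no filter, 6 with either FPKM scale, 9 at the stricter p and from 7 to 12 with 1 library left out. With the replicate number as a block, the counts were the same as reported (4, 2 and 2 of the 10 genes). The numbers come from the labels only, and the differences between libraries 1 and 2 correlated at -0.026 across genes between the groups. Over all genes, 227 were past 2-fold, against 133 with no filter, 107 with DESeq2, 38 and 141 on the FPKM scales, 144 without IL-12 replicate 1 and 241 with the block. Those that passed at any fold (2267 higher and 2030 lower) were 1451 and 1146 with no filter, 1481 and 1204 with DESeq2 and 1404 and 1124 without IL-12 replicate 1. Depth limits Igf1, Igfbp4, Igfbp5 and Igfbp6, which had 11 to 61 counts over the 4 libraries.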
